A study of Mus musculus with 8 samples.

Results

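The comparison described here sets plasma exosomes of mice given DOCA-salt against plasma exosomes of baseline mice. Of the 8 libraries of the study, 4 are from plasma and were used, selected by their labels for fluid, sex and treatment: 1 from a DOCA-salt female, 1 from a DOCA-salt male, 1 from a baseline female and 1 from a baseline male. The other 4 libraries come from cerebrospinal fluid (CSF) and enter only the test of whether a plasma difference is unlike the CSF one. All mice were adult and wild-type, and all libraries carry the same batch label. DOCA-salt mice, labelled DOCA+Salt, received deoxycorticosterone acetate with salt, while baseline mice had no treatment. Dose, duration, strain and any surgery are not given in the sources used here, and with untreated controls the steroid, the salt and the handling cannot be told apart. With 1 library per sex and treatment, the female libraries form one pair and the male libraries the other, and a change counts as shared when both pairs show it.

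Deoxycorticosterone acetate is a precursor of aldosterone that activates the mineralocorticoid receptor, and with dietary salt it raises blood pressure in rodents with low renin, fibrosis of heart and kidney, and inflammation of vessels. Exosomes are small vesicles released by most cells, and those in plasma carry microRNAs (miRNAs) from blood cells, platelets, endothelium, liver, muscle and other tissues. A miRNA recognises its target messenger RNAs mainly through its seed, bases 2 to 8 from the 5′ end. Library composition is relative, so fewer vesicles of a tissue and less miRNA per vesicle cannot be told apart in these values.

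The libraries held 337240 unique molecular identifiers (UMIs, each standing for 1 captured molecule) in the DOCA-salt female and 304696 in the DOCA-salt male, against 279864 in the baseline female and 158572 in the baseline male. The baseline male library was the shallowest and also had the most reads per UMI, a median of 6.8 over miRNAs, against 4 to 4.98 in the other three. Of 1977 miRNAs listed, 1398 had enough counts for the fit across all 4 libraries, and 616 had at least 50 UMIs over each pair and entered the ratios within pairs. Blood cell and liver miRNAs were present in every library: miR-16-5p was the most abundant miRNA in each, at 67568 to 134760 CPM (UMIs relative to library size, scaled by the TMM method), and the liver miRNA miR-122-5p was at 2563 to 4209 CPM. The neuronal miR-124-3p was at 18.2 to 113 CPM and miR-9-5p at 92.7 to 194 CPM.

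Across the 616 miRNAs, 11 (1.79%) were at least 2-fold higher in DOCA-salt plasma in both pairs, 3 (0.487%) were at least 2-fold lower in both, and 0 moved 2-fold in opposite directions. The higher group comprised the muscle miRNA miR-206-3p, the liver-rich miR-148a-3p, miR-2861, miR-346-3p, the related miR-378a-3p and miR-378c, miR-12203-3p, miR-7665-3p, miR-711, miR-7683-5p and miR-6388. The lower group comprised miR-7217-3p, miR-880-3p and miR-511-5p. These ratios compare 1 library with 1 and carry no test. With scaling by library totals alone, which lowered the female ratios by 0.23 and the male ratios by 0.09 on the log2 scale, 4 miRNAs were 2-fold higher and 5 were 2-fold lower in both pairs. The single pairs held many more such differences than the shared set. In males 106 miRNAs (17.2%) were 2-fold higher and 35 (5.68%) 2-fold lower. In females 40 (6.49%) were higher and 17 (2.76%) lower. The standard deviation of the log2 ratio over the 616 miRNAs was 0.93 in males and 0.59 in females. Its median over them was 0.13 in males and 0.16 in females. The ratios of the 2 pairs had a Pearson correlation of 0.304 and a Spearman correlation of 0.309 across miRNAs, which are not independent replicates. Among the 178 miRNAs with at least 200 UMIs over each pair, the Pearson correlation was 0.254.

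**Figure D1:**
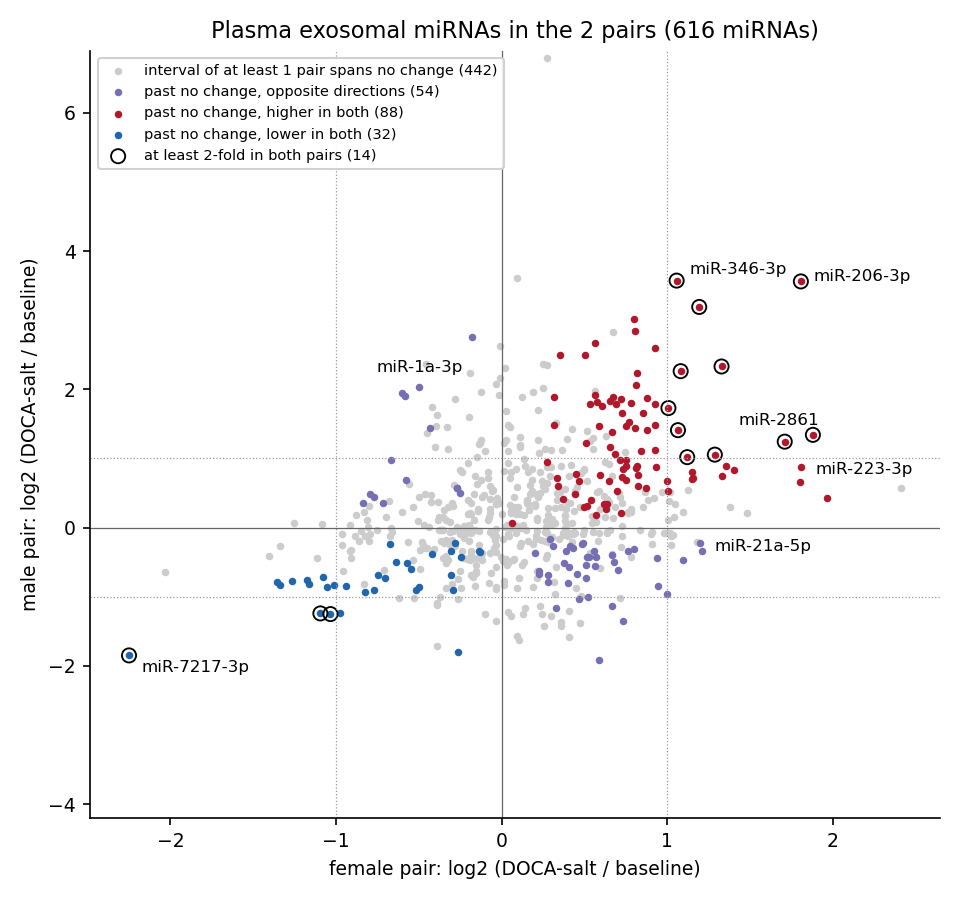
Log2 ratio of DOCA-salt to baseline in females (x axis) and in males (y axis) for 616 miRNAs with at least 50 UMIs over each pair. Colours show whether the 95% counting intervals of both pairs lie past no change (88 higher in both, 32 lower in both, 54 opposite), and circles mark the 14 miRNAs at least 2-fold changed the same way in both pairs.

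The mature sequences of the shared miRNAs, from RefSeq on GRCm38.p6, are shown because their seeds decide which messages each could recognise and which of them belong together. Capitals mark the seed. The higher group, from the most to the least abundant, and then the lower group read as follows.
miR-206-3p: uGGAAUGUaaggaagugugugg
miR-148a-3p: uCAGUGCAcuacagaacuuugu
miR-2861: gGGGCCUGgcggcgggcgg
miR-346-3p: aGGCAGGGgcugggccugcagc
miR-12203-3p: aUGGAAUCucucccucuggucu
miR-378c: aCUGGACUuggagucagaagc
miR-7665-3p: aGCCAGGUcccuguccccuaca
miR-711: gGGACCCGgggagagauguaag
miR-7683-5p: uUCCGUGUuucgucugaccacu
miR-7217-3p: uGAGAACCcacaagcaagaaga
miR-880-3p: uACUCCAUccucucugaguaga
The 11 printed seeds are all different. miR-12203-3p and miR-206-3p share the letters GGAAU, which stand 1 base later in miR-12203-3p. miR-2861 is the shortest, at 19 bases, with 94.7% G or C. miR-378a-3p, miR-6388 and miR-511-5p are named only.

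miR-206-3p, a skeletal muscle miRNA that promotes myoblast differentiation and is processed from the same locus as miR-133b, had the largest fitted difference among the miRNAs that passed the test in the higher direction. Its mature form lies at chr1:20679055-20679076 on the plus strand of mm10, in an exon of the long non-coding RNA Gm28653. It was counted at 956 UMIs in the DOCA-salt female and 2097 in the DOCA-salt male, against 266 in the baseline female and 98 in the baseline male. Both DOCA-salt libraries lay above both baseline libraries. On the TMM-scaled CPM scale the means were 4879 ± 1971 in DOCA-salt plasma and 761 ± 329 in baseline plasma (SD, n = 2 each). The log2 ratio was 1.81 in females and 3.56 in males. Fitted over the 4 libraries with sex and treatment as terms, the log2 difference was 2.67 ± 0.50 (SE), with an adjusted p of 0.0041 (edgeR quasi-likelihood test, Benjamini-Hochberg over 1398 miRNAs). Leaving out 1 library at a time gave differences from 2.21 to 3.25 and adjusted p from 0.0023 to 0.26.

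The read counts beneath these UMIs differ for miR-206-3p. It had 5040 reads in the DOCA-salt female and 8613 in the DOCA-salt male, against 1282 in the baseline female and 7999 in the baseline male. Thus 98 UMIs in the baseline male carried 81.6 reads each, 11.4 times that library's median over the 515 miRNAs with at least 20 UMIs in each library. The next largest such excess, over all 4 libraries and those 515 miRNAs, was 1.63 times. By reads, the log2 ratio of miR-206-3p was 1.86 in females and 0.01 in males, and the fitted difference of 0.93 had an adjusted p of 0.54 (edgeR). The higher level of miR-206-3p appears by both counts in females, and by UMIs alone in males. Without the baseline male library the fitted difference by UMIs was 2.29 with an adjusted p of 0.14 (edgeR).

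The other striated muscle miRNAs were high in the DOCA-salt male library and lacked a common direction in females. miR-1a-3p, the main heart and skeletal muscle miRNA, was counted at 649 UMIs in the DOCA-salt female and 1538 in the DOCA-salt male, against 897 in the baseline female and 207 in the baseline male. Its log2 ratio was -0.50 in females and 2.04 in males, and the groups overlap. miR-133a-3p and miR-133b-3p, muscle miRNAs whose counts were nearly equal and whose reads may be shared, had log2 ratios of 0.19 and 0.12 in the female pair and 1.96 and 1.89 in the male pair, with the female sign turned by scaling to library totals. Of 5 striated muscle miRNAs past the pair minimum, 3 were higher in both pairs and 0 lower, beside 39.1% and 22.9% of all miRNAs, and miR-133a-3p and miR-133b-3p among the 3 may be the same reads. Of 6 tested, only miR-206-3p passed the threshold. Scaled to library totals, 1 of the 5 was higher in both, beside 28.7% of all miRNAs. The list made up 0.700% and 1.60% of UMIs in the DOCA-salt female and male, against 0.661% and 0.341% in the baseline female and male. The baseline male share includes the miR-206-3p count, whose reads per UMI were 11.4 times that library's median. Shares by reads were not computed. The median male log2 ratio of the list was 1.72 by reads and 1.96 by UMIs.

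**Figure D2:**
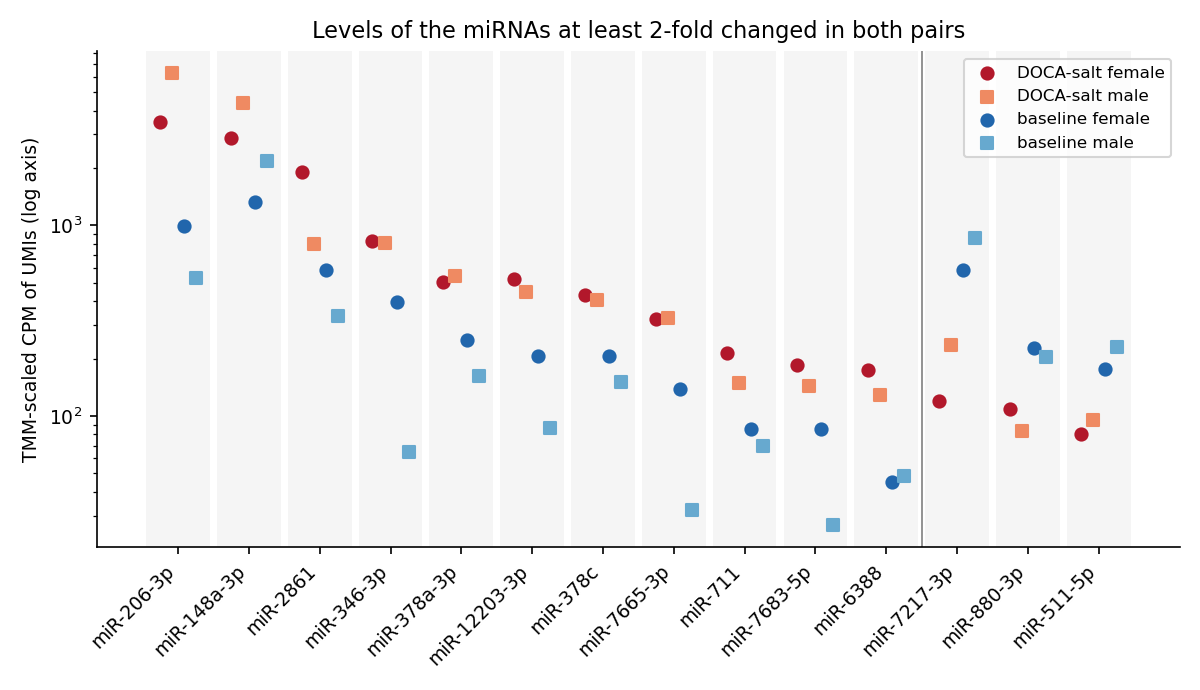
TMM-scaled CPM on a log axis for the 14 miRNAs at least 2-fold changed the same way in both pairs, 1 point per library, circles for females and squares for males, ordered by mean level within the 11 higher miRNAs and, right of the line, the 3 lower ones. The baseline male point is far below the baseline female one for miR-346-3p, miR-7665-3p and miR-7683-5p.

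miR-148a-3p, a liver-rich miRNA that in liver represses the low-density lipoprotein receptor, was the most even of the abundant shared differences. It had 792 and 1468 UMIs in the DOCA-salt female and male, against 355 and 402 in the baseline female and male. Scaled, these were 2887 and 4391 CPM in DOCA-salt plasma, against 1326 and 2165 CPM in baseline plasma, so the groups did not overlap. The log2 ratio was 1.12 (95% counting interval 0.94 to 1.31) in females and 1.02 (0.86 to 1.18) in males, and by reads it was 1.15 and 1.03. The fitted difference of 1.07 ± 0.44 (SE) did not pass, with an adjusted p of 0.23 (edgeR). Scaled to library totals the ratios were 0.89 and 0.93, just under 2-fold. The liver miRNA miR-122-5p did not share the difference, with log2 ratios of -0.72 in females and 0.35 in males.

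The opposite arm of the same hairpin went the other way. miR-148a-5p had 145 and 210 UMIs in the DOCA-salt female and male, against 251 and 223 in the baseline female and male. Its log2 ratio was -0.82 (-1.13 to -0.53) in females and -0.93 (-1.21 to -0.66) in males, and by reads -0.84 and -0.98. Of 102 hairpins with both arms past the minimum, miR-148a was the only one whose arms lay past no change in both pairs in opposite directions. The arms are shown with the 2 miRNAs that share the seed of the 3p arm.
miR-148a-5p: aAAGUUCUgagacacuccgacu
miR-148b-3p: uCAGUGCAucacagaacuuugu
miR-152-3p: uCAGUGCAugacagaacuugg
miR-148b-3p matches miR-148a-3p at 20 of 22 positions and had log2 ratios of -0.04 and -0.19 in the female and male pairs. miR-152-3p matches it at 18 of 21 positions, with ratios of 0.80 and -0.31. The higher level in both pairs was therefore seen for miR-148a-3p and not for its seed partners, without a test of that contrast.

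miR-2861, which in mouse osteoblasts represses histone deacetylase 5, maps to chr2:32712819-32712837 on the minus strand within an exon of Cdk9. It had 525 and 266 UMIs in the DOCA-salt female and male, against 156 and 62 in the baseline female and male, for log2 ratios of 1.71 and 1.24. The DOCA-salt levels of 1914 and 796 CPM lay above the baseline levels of 583 and 334 CPM. The fitted difference of 1.49 ± 0.49 (SE) had an adjusted p of 0.13 (edgeR). Its neighbour within 10 kb, miR-3960, went the other way, with log2 ratios of -0.29 and -0.90.

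miR-346-3p lies at chr14:34894662-34894683 on the plus strand in an intron of Grid1, the glutamate receptor delta-1 gene. It had 227 and 271 UMIs in the DOCA-salt female and male, against 106 and 12 in the baseline female and male. The DOCA-salt libraries were close together at 828 and 811 CPM, whereas the baseline libraries stood apart at 396 and 64.6 CPM. Its log2 ratio was 1.06 in females and 3.57 in males, and the fitted difference of 2.18 ± 0.57 (SE) had an adjusted p of 0.044 (edgeR). Without the baseline male library the difference was 1.05, and without the baseline female library it was 3.69. Each of these fits left 1 baseline library and had no sex term.

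miR-7665-3p, in an intron of Mapkbp1, and miR-7683-5p, in an intron of Slamf7, had the same shape as miR-346-3p. For miR-7665-3p the counts were 88 and 109 UMIs in the DOCA-salt female and male, against 37 and 6 in the baseline female and male, and the fitted difference was 2.04 with an adjusted p of 0.043 (edgeR). For miR-7683-5p they were 51 and 48 UMIs in the DOCA-salt female and male, against 23 and 5 in the baseline female and male, and the difference of 1.58 had an adjusted p of 0.077 (edgeR). All 3 were lowest in the baseline male library, which is also the shallowest. Their male ratios by reads were 4.43 for miR-346-3p, 3.09 for miR-7665-3p and 2.04 for miR-7683-5p on the log2 scale, so the low baseline male value is in the reads as well.

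miR-378a-3p, encoded in an intron of the metabolic coactivator gene Ppargc1b, and its close relative miR-378c, encoded elsewhere on chromosome 14, were both higher. miR-378a-3p had 139 and 182 UMIs in the DOCA-salt female and male, against 67 and 30 in the baseline female and male. miR-378c had 119 and 136 UMIs in the DOCA-salt female and male, against 55 and 28 in the baseline female and male. The near-equal counts leave it uncertain how reads were split between these similar sequences, so they are best read as 1 signal, with log2 ratios of 1.01 and 1.06 in females and 1.73 and 1.41 in males. Neither passed the fit, at adjusted p of 0.18 and 0.20 (edgeR).

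The remaining higher miRNAs were of low to moderate level. miR-12203-3p, in an intron of Homer2, had 143 and 150 UMIs in the DOCA-salt female and male, against 55 and 16 in the baseline female and male. miR-711, in an intron of the collagen VII gene Col7a1, had 59 and 50 in the DOCA-salt female and male, against 23 and 13 in the baseline female and male. miR-6388 had 48 and 43 in the DOCA-salt female and male, against 12 and 9 in the baseline female and male. In all 3 the DOCA-salt libraries lay above the baseline libraries after scaling. miR-6388 was the only one of them past the threshold, with a fitted log2 difference of 1.70 and an adjusted p of 0.045 (edgeR). miR-12203-3p had a difference of 1.81 with an adjusted p of 0.068.

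Among the lower miRNAs, miR-7217-3p had the largest shared difference. It lies at chr17:27355778-27355799 on the plus strand in an exon of the long non-coding RNA Gm49794. It had 33 and 79 UMIs in the DOCA-salt female and male, against 157 and 160 in the baseline female and male. Scaled, 120 and 236 CPM in DOCA-salt plasma stood against 586 and 862 CPM in baseline plasma, with no overlap. The log2 ratio was -2.25 (-2.87 to -1.74) in females and -1.85 (-2.27 to -1.47) in males, and by reads -2.34 and -1.90. The fitted level was 4.19-fold lower, a log2 difference of -2.07 ± 0.50 (SE) with an adjusted p of 0.043 (edgeR). Leaving out 1 library at a time gave differences from -2.56 to -1.57. Each such fit left 1 library in a group and had no sex term, so it cannot measure the spread within that group. Without either DOCA-salt library the difference did not pass the threshold.

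miR-880-3p, of an X-linked group of miRNAs best known from mouse testis, and miR-511-5p, encoded in an intron of the macrophage mannose receptor gene Mrc1, were the other lower ones. miR-880-3p had 30 and 28 UMIs in the DOCA-salt female and male, against 61 and 38 in the baseline female and male. miR-511-5p had 22 and 32 UMIs in the DOCA-salt female and male, against 47 and 43 in the baseline female and male. Neither passed the fit, at adjusted p of 0.20 and 0.16 (edgeR), and by reads the female ratio of miR-511-5p was only -0.50 on the log2 scale.

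**Figure D3:**
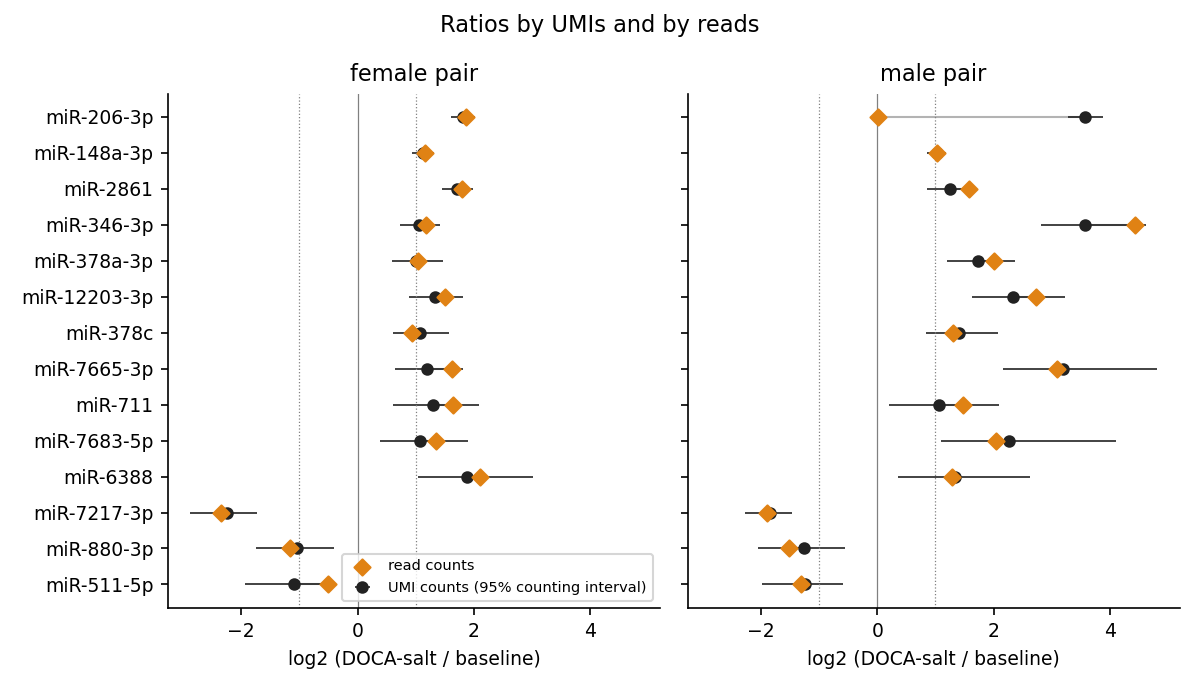
Log2 ratio of DOCA-salt to baseline for the 14 shared miRNAs by UMIs (black points with 95% counting intervals) and by reads (orange diamonds), in the female pair (left) and the male pair (right). The widest gap is that of miR-206-3p in males, at 3.56 by UMIs and 0.01 by reads, followed by miR-346-3p in males, at 3.57 and 4.43, and miR-511-5p in females, at -1.09 and -0.50.

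Counted by reads over the same 616 miRNAs, 23 were 2-fold higher in both pairs, 6 were 2-fold lower and 0 were opposite. Of the UMI sets, 9 of the 11 higher and 2 of the 3 lower were among them. The higher miRNAs that were not were miR-206-3p and miR-378c, whose female ratio by reads was 0.94, and the lower one that was not was miR-511-5p. Across the 616 miRNAs the ratios by UMIs and by reads had Pearson correlations of 0.942 in females and 0.929 in males, where both counts come from the same libraries. With the minimum applied to reads, 1485 miRNAs entered, of which 39 (2.63%) were 2-fold higher in both pairs, 68 (4.58%) were 2-fold lower and 29 (1.95%) were opposite. Fitted on reads, 0 of 1862 miRNAs passed by edgeR's quasi-likelihood test, and 181 (9.72%) had an unadjusted p under 0.05.

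The fit over the 4 plasma libraries called 15 of 1398 miRNAs (1.07%), 4 higher (0.286%) and 11 lower (0.787%), by edgeR's quasi-likelihood test at an adjusted p under 0.05. At an unadjusted p under 0.05 there were 192 (13.7%). All 15 had the same direction in both pairs, but 10 of them lay below the pair minimum, with mean counts from 11.5 to 854 UMIs over the 15. The call rests on 1 residual degree of freedom and on the sex term: 0 were called without that term, 0 without the DOCA-salt female, 0 without the DOCA-salt male, 73 without the baseline female, 17 without the baseline male and 0 by reads. Scaled with DESeq2's size factors there were 29, of which 16 were higher and 13 lower, and these included all 15.

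The called miRNAs of the lower direction were miR-7217-3p and 10 sparse ones. miR-124-5p, the passenger strand of the neuronal miR-124, had 8 and 8 UMIs in the DOCA-salt female and male, against 32 and 16 in the baseline female and male. miR-376b-3p, of the Dlk1-Dio3 imprinted region, had 13 and 12 UMIs in the DOCA-salt female and male, against 30 and 32 in the baseline female and male. miR-704, in an intron of Pdia4, had 6 and 10 UMIs in the DOCA-salt female and male, against 22 and 26 in the baseline female and male. These 3 were lower in each DOCA-salt library than in each baseline library. miR-1933-3p, miR-3105-5p, miR-6928-3p, miR-6986-5p and miR-12196-5p had fitted log2 differences from -2.27 to -1.64 with adjusted p from 0.043 to 0.044 (edgeR).

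For 2 of the lower calls a single baseline library held the difference. miR-8095 had 6 and 14 UMIs in the DOCA-salt female and male, against 8 in the baseline female and 55 in the baseline male. Its fitted difference of -2.07 became 0.11 without the baseline male library. miR-466i-5p, of a repeated miRNA family whose copies are hard to tell apart, had 11 and 7 UMIs in the DOCA-salt female and male, against 66 in the baseline female and 7 in the baseline male, and its fitted difference became -0.29 without the baseline female library.

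Smaller shared differences were counted by whether the 95% counting intervals of both pairs lay past no change. By that count 88 miRNAs (14.3%) were higher in both pairs, 32 (5.19%) were lower in both, and 54 (8.77%) had intervals on opposite sides. With scaling by library totals these were 59, 46 and 51. All 88 and all 32 kept their direction in both pairs by reads. Such intervals hold counting error only and not the spread between mice. By sign alone, 241 (39.1%) were higher and 141 (22.9%) lower in both pairs, and 234 (38%) went opposite ways.

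Among the abundant miRNAs in that higher group, the miR-125 and miR-99 seed families stood side by side. miR-125b-5p, the vertebrate form of the developmental regulator lin-4, had 64843 and 35097 CPM in the DOCA-salt female and male, against 39237 and 21144 CPM in the baseline female and male. Its log2 ratios were 0.72 in females and 0.73 in males. miR-125a-5p had 40586 and 24670 CPM in the DOCA-salt female and male, against 22134 and 16568 CPM in the baseline female and male, for ratios of 0.87 and 0.57. The fitted differences of 0.72 for both had adjusted p of 0.16 and 0.21 (edgeR). miR-351-5p, the only other miRNA with this seed past the pair minimum, had ratios of 0.22 and 0.11, so 3 of 3 past it were higher in both pairs, beside 39.1% of all miRNAs. miR-6367 and miR-6394 share the seed and lay below the minimum. Both intervals of miR-351-5p include no change, and by reads its male ratio was -0.31.

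The miR-99 family gave a similar picture for 2 of its 3 members. miR-99b-5p had log2 ratios of 0.74 in females and 0.85 in males, miR-99a-5p of 0.67 and 1.38, and miR-100-5p of 0.53 and -0.43. miR-99b, let-7e and miR-125a lie within 10 kb of each other on chromosome 17, in Spaca6. Of the 5 mature miRNAs of that cluster past the minimum, 4 were higher in both pairs, beside 39.1% of all miRNAs, and 3 had both intervals past no change in that direction, beside 14.3%. let-7e-5p, the third hairpin, had ratios of 0.72 and 0.21. The sequences show the seed that each pair of relatives shares.
miR-125a-5p: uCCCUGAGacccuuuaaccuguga
miR-125b-5p: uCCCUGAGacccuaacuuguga
miR-99a-5p: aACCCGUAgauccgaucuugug
miR-99b-5p: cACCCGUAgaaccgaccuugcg
let-7e-5p: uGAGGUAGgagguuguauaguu
miR-125a-5p and miR-125b-5p share their first 13 bases, and miR-99a-5p and miR-99b-5p are the same at 18 of 22 positions.

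The let-7 miRNAs, which promote differentiation and hold back growth genes, are among the most abundant in plasma. The 10 members made up 24.3% and 23.9% of UMIs in the DOCA-salt female and male, against 23.8% and 23.5% in the baseline female and male. Of these, 5 members were higher in both pairs and 1 was lower, beside 39.1% and 22.9% of all miRNAs. With scaling to library totals the counts were 3 and 2, beside 28.7% and 31.7%. By reads they were 8 and 1, beside 43.3% and 23.2%. let-7c-5p had ratios of 0.47 and 0.68, and let-7b-5p of 0.51 and 0.31, whereas let-7i-5p had ratios of -0.13 and -0.35. None of the 10 was called. Their median fitted difference was 0.14, beside -0.03 over all 1398 miRNAs, and -0.06 without the DOCA-salt female library. All 10 lay past the pair minimum, with median log2 ratios of 0.33 in females and -0.05 in males. Over the 616 miRNAs past it these medians were 0.16 and 0.13.

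miR-223-3p, the miRNA of neutrophils, monocytes and platelets that restrains granulocyte production and the NLRP3 inflammasome, was the most abundant miRNA close to the threshold. It had 14323 and 7834 CPM in the DOCA-salt female and male, against 4086 and 4286 CPM in the baseline female and male. The baseline libraries were nearly equal and both DOCA-salt libraries lay above them. Its log2 ratio was 1.81 (1.71 to 1.91) in females and 0.87 (0.75 to 0.99) in males, and by reads 1.88 and 0.78. The fitted difference of 1.34 ± 0.38 (SE) had an adjusted p of 0.077 (edgeR). The other arm, miR-223-5p, chosen after its values were seen, had log2 ratios of -0.08 in females and 0.15 in males.
miR-223-3p: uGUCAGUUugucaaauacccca
miR-142a-3p: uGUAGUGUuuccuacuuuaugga
miR-142a-5p: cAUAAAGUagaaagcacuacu

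Of the other leukocyte miRNAs, only miR-342-3p was also higher in both pairs. miR-142a-3p, expressed across blood cells, had 12045 and 9359 CPM in the DOCA-salt female and male, against 16113 and 12163 CPM in the baseline female and male. Its ratios were -0.42 and -0.38, and those of the other arm, miR-142a-5p, -0.77 and -0.90, so both arms of this hairpin were lower. miR-150-5p, the miRNA of mature lymphocytes, had ratios of -0.67 and -0.24. Over the 9 leukocyte miRNAs, 2 were higher in both pairs and 3 lower, beside 39.1% and 22.9% of all miRNAs. By reads these were 4 and 3, beside 43.3% and 23.2%. In the fit 0 of 9 were called. The list held 3.86% and 3.41% of UMIs in the DOCA-salt female and male, against 3.86% and 3.76% in the baseline female and male. Of 5 platelet miRNAs, 2 were higher in both pairs, miR-223-3p and miR-199a-3p, and 0 lower, beside 39.1% and 22.9% of all miRNAs. By reads 4 were higher and 0 lower, beside 43.3% and 23.2%. miR-199a-3p had ratios of 1.16 and 0.72, but its mature sequence is identical to that of miR-199b-3p, so the 2 entries are 1 measurement. The platelet list held 5.24% and 4.38% of UMIs in the DOCA-salt female and male, against 3.64% and 4.92% in the baseline female and male.

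The erythrocyte miRNAs were lower by sign more often than higher, without a stable median. Of 9 past the minimum, 0 were higher and 6 were lower in both pairs, beside 39.1% and 22.9% of all miRNAs. The counts were the same under library totals, where 31.7% of all miRNAs were lower, and under DESeq2 scaling, where 21.8% were. By reads they were 0 and 5, beside 43.3% and 23.2%. miR-16-5p had ratios of -0.14 and -0.34, and miR-144-5p of -0.50 and -0.86. miR-451a, the most specific of them, had 164 and 105 UMIs in the DOCA-salt female and male, against 179 and 105 in the baseline female and male, for ratios of -0.16 and -0.84. miR-486a-5p and miR-486b-5p, with nearly equal counts, were lower in females, both at -0.27, and higher in males, at 0.57 and 0.58. Both intervals were past no change for 2 lower and 0 higher of the 9, beside 5.19% and 14.3% of all miRNAs. The intervals were opposite for 3 of the 9, beside 8.77%. Among these 3 were miR-486a-5p and miR-486b-5p, which lie on opposite strands of the same locus and may be the same reads. The median fitted difference was -0.21 and 0 of 10 tested were called. That median was 0.15 without the DOCA-salt male library and 0.26 without the baseline female library, against -0.59 without the DOCA-salt female and -0.56 without the baseline male. The list held 16.1% and 12.7% of UMIs in the DOCA-salt female and male, against 21.6% and 14.1% in the baseline female and male. Haemolysis is commonly gauged by setting miR-451a against miR-23a-3p. That ratio of UMIs was 0.127 in both DOCA-salt libraries, against 0.226 and 0.175 in the baseline female and male. Its part in the other differences was not tested.

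**Figure D4:**
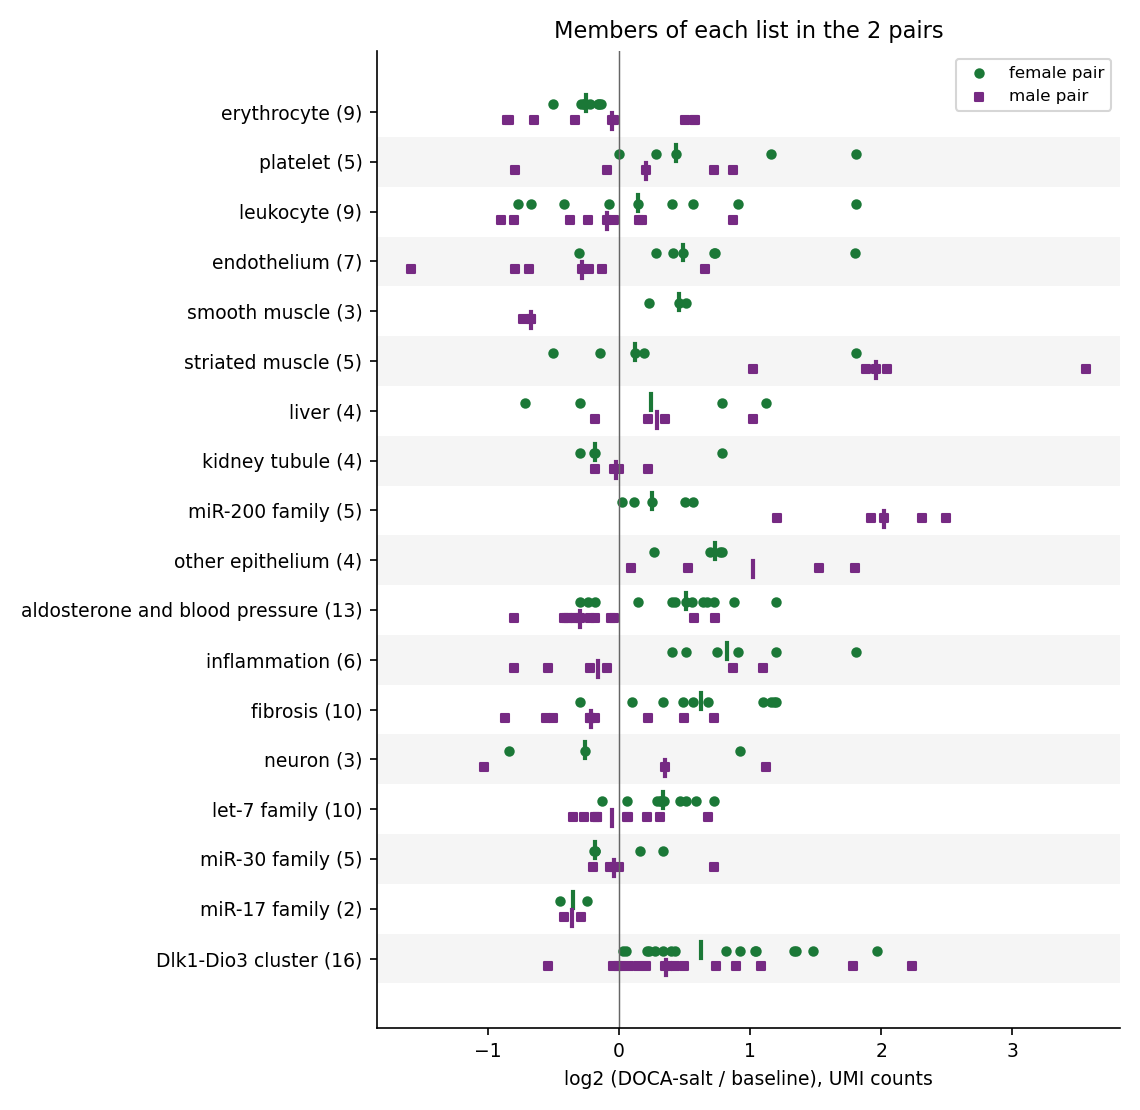
Log2 ratio of DOCA-salt to baseline for the members of 18 lists past the minimum, with the female pair as green circles and the male pair as purple squares. Vertical bars are medians and the number of members is in brackets. The striated muscle and miR-200 members lie far to the right in the male pair, at medians of 1.96 and 2.02, and near no change in the female pair, at medians of 0.12 and 0.25.

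The miRNAs of the Dlk1-Dio3 imprinted region on chromosome 12, a large group expressed from the maternal chromosome, were higher by sign more often than lower. The list used for the region is partial. By position, the 3 clusters of the region held 34 mature miRNAs past the pair minimum, of which 22 (64.7%) were higher in both pairs and 3 lower, beside 39.1% higher and 22.9% lower of all miRNAs. Both intervals lay past no change for 7 higher and 1 lower of the 34, beside 14.3% and 5.19% of all miRNAs. Of the 46 miRNAs on the list, 16 passed the minimum, and 13 of these were higher in both pairs and 0 lower. With scaling to library totals these were 10 and 3, beside 28.7% and 31.7% of all miRNAs. miR-127-3p had 3135 and 1104 CPM in the DOCA-salt female and male, against 799 and 818 CPM in the baseline female and male. miR-379-5p had 1094 and 553 CPM in the DOCA-salt female and male, against 426 and 296 CPM in the baseline female and male. For miR-127-3p the ratio was much larger in females, 1.97 against 0.43 in males, and for miR-379-5p the ratios were 1.35 and 0.89.
miR-127-3p: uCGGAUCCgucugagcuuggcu
miR-379-5p: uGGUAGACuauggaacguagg
miR-376b-3p: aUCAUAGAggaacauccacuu
In the fit 30 members were tested and 1 was called, the lower miR-376b-3p, so no higher member passed. The median fitted difference of the list was 0.41, beside -0.03 over all miRNAs tested, and 0.16 without the DOCA-salt female library. The 16 past the minimum had median log2 ratios of 0.62 in females and 0.36 in males, beside 0.16 and 0.13 over the 616 miRNAs.

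The epithelial miR-200 family stood out in 1 library. miR-200c-3p had 144 and 940 UMIs in the DOCA-salt female and male, against 99 and 92 in the baseline female and male. miR-141-3p, from the same cluster, had 93 and 473 UMIs in the DOCA-salt female and male, against 61 and 69 in the baseline female and male. The DOCA-salt male stood above the other 3 libraries for both. All 5 listed members past the minimum were higher in both pairs by sign, beside 39.1% of all miRNAs. For 2 of the 5 both intervals lay above no change, beside 14.3%. The 5 had median log2 ratios of 0.25 in females and 2.02 in males, beside 0.16 and 0.13 over the 616 miRNAs. Under library totals 3 of the 5 were higher in both, beside 28.7% of all miRNAs. miR-429-5p, the other arm of a family hairpin and not on the list, was lower in both pairs, at -1.34 and -0.83. Of 7 tested, 0 were called. miR-182-5p and miR-183-5p, from a cluster of epithelial and sensory cells, had ratios of 0.77 and 0.78 in females and 1.52 and 1.80 in males. The list of other epithelial miRNAs had 4 members past the minimum: miR-182-5p, miR-183-5p, miR-203-3p and miR-205-5p. All 4 were higher in both pairs, beside 39.1% of all miRNAs, or 3 under library totals, beside 28.7%. In females and males, miR-203-3p had ratios of 0.69 and 0.52, and miR-205-5p of 0.26 and 0.09. On this list 0 of 6 tested were called. The miR-200 family held 0.147% and 0.817% of UMIs in the DOCA-salt female and male, against 0.138% and 0.210% in the baseline female and male.

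**Figure D5:**
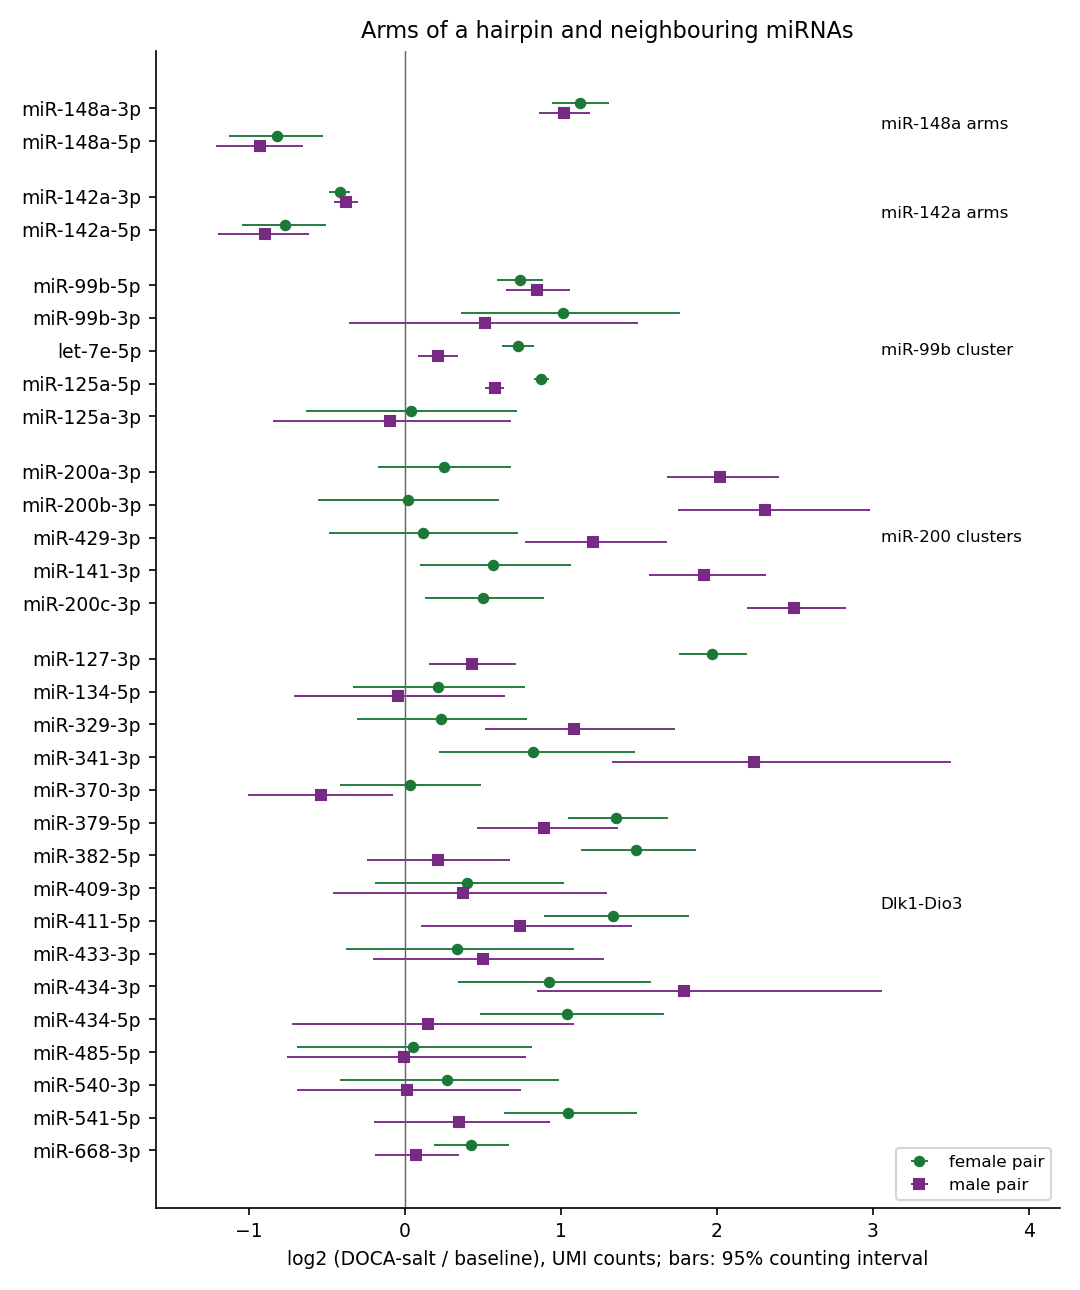
Log2 ratio of DOCA-salt to baseline with 95% counting intervals for the female pair (green circles) and the male pair (purple squares): the arms of miR-148a and miR-142a, the miR-99b cluster, the miR-200 clusters and the 16 Dlk1-Dio3 miRNAs past the minimum. The arms of miR-148a lie on opposite sides of no change in both pairs, and those of miR-142a both lie below it.

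The miRNAs that have been tied to aldosterone signalling, blood pressure, inflammation and fibrosis are set here beside 39.1% higher and 22.9% lower in both pairs among all miRNAs by UMIs, and 43.3% and 23.2% by reads. Of 13 on the aldosterone and blood pressure list, 2 were higher in both pairs, miR-125a-5p and miR-125b-5p, and 3 lower, and 0 of 17 tested were called. By reads, 7 of the 13 were higher in both and 3 lower. miR-24-3p, which represses the aldosterone synthase message in human adrenocortical cells, and miR-23a-3p and miR-27a-3p of the same cluster were higher in females and lower in males. In the order miR-23a-3p, miR-24-3p and miR-27a-3p they had female ratios of 0.67, 0.43 and 0.56 and male ratios of -0.39, -0.30 and -0.34. miR-21a-5p, a miRNA of fibrosis and inflammation, had 30885 and 14866 CPM in the DOCA-salt female and male, against 13476 and 17311 CPM in the baseline female and male. Its ratio was 1.20 in females and -0.22 in males. Of 6 inflammation miRNAs, 2 were higher in both pairs and 0 lower, and 0 of 7 tested were called. Of 10 fibrosis miRNAs, 3 were higher and 1 lower, and 0 of 11 were called. By reads, 5 of the 6 inflammation miRNAs were higher in both pairs and 0 lower, and 6 of the 10 fibrosis miRNAs were higher and 2 lower.

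The remaining lists had 2 to 7 members past the minimum, and their counts stand beside the same 39.1% higher and 22.9% lower among all miRNAs. Of 7 endothelial miRNAs 1 was higher in both pairs and 1 lower, with miR-126a-5p at -0.31 and -0.68. All 3 smooth muscle miRNAs past the minimum, from the miR-143 and miR-145a hairpins, were higher in females and lower in males by UMIs. By reads all 3 were higher in both, beside 43.3% of all miRNAs by reads. Of 4 liver miRNAs 2 were higher and 1 lower, while miR-122-5p differed between the pairs, at -0.72 in females and 0.35 in males. Of 4 kidney tubule miRNAs 1 was higher and 3 lower, of 5 miR-30 miRNAs 1 was higher and 3 lower, and of 2 miR-17 miRNAs both were lower. These lists overlap. miR-192-5p and miR-194-5p are on the liver and kidney lists, and miR-30a-5p and miR-30c-5p on the kidney and miR-30 lists. Both intervals lay below no change for 0 kidney and 0 miR-30 members. The male ratio of miR-30c-5p, counted as lower, was -1.3e-04. None of the tested members of these lists was called. Of 3 neuronal miRNAs past the minimum 1 was higher and 1 lower, and 1 of 10 tested was called, the lower miR-124-5p.

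Whether the plasma differences were unlike those of CSF was tested as an interaction over all 8 libraries, with 2 residual degrees of freedom. By edgeR's quasi-likelihood test 0 of 1465 miRNAs passed (0%), and 113 (7.71%) had an unadjusted p under 0.05. Scaled with DESeq2's size factors or with library totals, 2 passed, miR-206-3p and miR-7069-3p. miR-206-3p had a plasma effect of 2.78 and a CSF effect of -1.13 on the log2 scale, a difference of 3.91 with an adjusted p of 0.11. By reads that difference was 2.02 with an adjusted p of 0.87 (edgeR), and 0 miRNAs passed. In CSF miR-206-3p had 20182 and 258899 UMIs in the DOCA-salt female and male, against 47613 and 336328 in the baseline female and male. In the deposited CSF table miR-206-3p and miR-1a-3p hold each other's CPM values, so it is uncertain which UMI counts belong to which. With their CSF counts exchanged, the difference for miR-206-3p was 0.94. For miR-148a-3p the plasma effect was 1.17 and the CSF effect 0.66, with CSF pair ratios of 0.34 and 0.90. For miR-7217-3p the effects were -1.97 in plasma and -0.30 in CSF, with an adjusted p of 0.62 for the difference.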

How the data were processed

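Small RNA from exosomes was sequenced with UMIs (QIAseq kit, single-end reads of 150 bp). Per the labels' protocols and the submitters' processing notes, adapters were removed with Cutadapt 2.7 and reads matched to the databases miRBase, piRNABank and Rfam by Bowtie 1.3.0, with builds mm10 and GRCm38 named, and edgeR was named for normalization. The deposited read and UMI columns hold raw counts per mature miRNA, reads before and UMIs after collapsing of identifiers. The deposited CPM scaled UMIs to the library total, which recomputation gave back for plasma.

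UMI counts were filtered (filterByExpr), scaled by TMM and fitted with sex and treatment as terms (R 4.3.3, edgeR 4.0.16; threshold 0.05), checked on simulated data. Pair ratios used TMM-scaled CPM (prior count 1), a 2-fold limit and a minimum of 50 UMIs summed within each pair; exact conditional binomial 95% intervals cover counting error only. DESeq2 1.42.0 gave alternatives. In the plasma fit p-values rest on 1 residual degree of freedom, with the spread between libraries largely borrowed across miRNAs. Whether a library was 1 mouse or a pool is not stated beyond the 8 mice. Hosts came from the GENCODE annotation on mm10, sequences from RefSeq (1679 of 1977 miRNAs matched by name). By rule the text names called miRNAs, up to 10 per direction of the 2-fold shared ones, the 10 most abundant, up to 4 of the most abundant members per list, miR-451a and miR-23a-3p; miR-3960, miR-148a-5p, miR-148b-3p, miR-152-3p, miR-351-5p, the miR-99 family and some list members were chosen after their values were seen. The miRNAs compared, the 18 lists and the tests were chosen with earlier results of these data known.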

Additional observations from a re-analysis of the deposited data

Results flagged for a closer look

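The female and male pairs went opposite ways, with both counting intervals past no change, for 16 of the 86 miRNAs named by rule. Among all 616 miRNAs past the pair minimum this held for 54 (8.77%). Some of the 86 lay below that minimum. miR-486a-5p and miR-486b-5p, both among the 16, may be the same reads. The rule favours abundant miRNAs, whose counting intervals are narrower, so these shares cannot be compared directly. The difference between the sexes was not tested, since each sex has 1 library per treatment. Values are the male minus the female log2 ratio of DOCA-salt to baseline. The male ratio was the higher one for miR-1a-3p (2.54), miR-128-3p (1.19), miR-122-5p (1.07), miR-486b-5p (0.85) and miR-486a-5p (0.84). It was the lower one for miR-21a-5p (-1.42), miR-143-5p (-1.24), miR-143-3p (-1.13), miR-29c-3p (-1.12), miR-126a-3p (-1.07), miR-23a-3p (-1.06), miR-146b-5p (-1.05), miR-145a-5p (-0.90), miR-221-3p (-0.72), miR-29a-3p (-0.71) and let-7a-5p (-0.46).

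By reads the male ratio turned positive for miR-21a-5p (0.32, against -0.22 by UMIs), miR-143-3p (0.20, against -0.67), miR-143-5p (0.28, against -0.73), miR-145a-5p (0.26, against -0.68) and miR-146b-5p (0.49, against -0.55), so that these 5 were higher in both pairs by reads. For let-7a-5p the male ratio by reads was 0.01, against -0.17 by UMIs. In both the UMI and the read counts, miR-1a-3p was lower in the female pair (-0.50 and -0.47) and higher in the male pair (2.04 and 1.97).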

How the results depend on the processing

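The count of 15 called miRNAs became 29 with DESeq2's size factors, 29 with no count filter, 1 with DESeq2's Wald test, 0 with library totals alone, 0 by reads and 0 without the replicate block of sex (treatment as the only term); leaving out 1 library gave 0 to 73. The direction of the 15 was kept under all of these, except for miR-8095 without the baseline male library, where leaving out 1 library gave -3.13 to 0.11. Without a library a fit had treatment as its only term and the lone library was taken to vary like the others. Library totals moved the median fitted difference of all tested miRNAs to -0.19, against -0.03.

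The 11 miRNAs 2-fold higher in both pairs became 17 at a minimum of 20 UMIs, 5 at 200, 4 with library totals, 65 at a 1.5-fold limit, 1 at a 3-fold limit and 39 by reads. The 3 lower ones became 20, 0, 5, 22, 1 and 68 in that order, and 1 with a prior count of 5. The 0 opposite ones became 8 at 20 UMIs, 10 at 1.5-fold and 29 by reads. Chosen after seeing the data were reads over the same 616 miRNAs, which gave 23 higher and 6 lower, and counting intervals of any size, which gave 88, 32 and 54. No shared count exists with a library left out. The 0 interactions became 2 with DESeq2's size factors, 2 with library totals and 0 to 3 with 1 library left out. The cause of these shifts was not tested. Depth limits the sparse miRNAs, and the shallowest library, the baseline male, held 158572 UMIs.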

Other observations

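Among 102 hairpins with both arms past the minimum, miR-7002 was the only one whose 4 counting intervals, of both arms in both pairs, all lay above no change. By sign alone, 12 of the 102 had both arms higher in both pairs and 5 had both lower. Of all 616 miRNAs taken singly, 39.1% were higher and 22.9% lower in both pairs. Whether unrelated arms would give such counts was not tested. miR-7002-3p had 232 and 304 UMIs in the DOCA-salt female and male, against 123 and 63 in the baseline female and male, with log2 ratios of 0.88 and 1.41. miR-7002-5p had 113 and 171 UMIs in the DOCA-salt female and male, against 65 and 34 in the baseline female and male, with ratios of 0.75 and 1.46. The arms of a hairpin otherwise showed little relation: over those 102 hairpins the Pearson correlation of the 5p with the 3p log2 ratio was -0.04 in females and 0.13 in males, as a description of arms that share their libraries.

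Of 40 genomic clusters with at least 2 hairpins past the minimum within 10 kb, 5 had all their members higher in both pairs. In 1 cluster, that of miR-144-5p and miR-451a, all were lower. These counts stand beside 39.1% higher and 22.9% lower among single miRNAs, and whether unlinked miRNAs would give them was not tested. The clusters of miR-182 and miR-183 and of miR-141 and miR-200c were among the 5. The G and C content of the mature sequence, known for 537 of the 616 miRNAs, had a Pearson correlation with the log2 ratio of 0.13 in females and 0.07 in males. These miRNAs were picked after their values were seen.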
